A study of Mus musculus with 17 samples.

Results

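Colon macrophage preparations of MCJ-deficient mice were set against those of wild-type mice after 6 days of DSS with no antibiotic beforehand, a condition named NP in the library titles. Every gene of the NP count table that passed a filter on low counts was examined, which left 14452 of 27179 genes. The MCJ-deficient group held replicates 19, 20 and 21 and the wild-type group replicates 7, 8 and 9, which are 6 of the 17 libraries of the series. All mice were C57BL/6 (h-2b) of 8 weeks, and both groups had received DSS. The labels give 1 mouse number per library, name no clone, sort or Cre, and call the deficiency MCJ deficient without naming the allele. The other 11 libraries came from mice with no treatment named (NN) and from mice given a broad-spectrum antibiotic for 7 days before the DSS (PP), and enter here only where the size of the MCJ effect was compared between conditions.

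MCJ, the product of Dnajc15, is a J-domain protein of the inner mitochondrial membrane that binds complex I and restrains electron transport. DSS (dextran sulfate sodium) damages the colon epithelium, and blood monocytes then enter the tissue and mature into macrophages beside the resident ones. Such cells make interleukin 1, chemokines and prostaglandins, and carry receptors for chemokines, microbial sugars and antibodies.

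The libraries held 34932286 to 37083344 counts in MCJ-deficient mice and 32505339 to 35952405 in wild-type mice. Levels are given as CPM, counts scaled to a common library total with TMM factors, and log2 fold changes are MCJ-deficient over wild type with the standard error (SE) of the edgeR fit. In these bulk libraries fewer cells of a type and less RNA per cell cannot be told apart. The labels name macrophages, but colonocyte markers dominated the preparations: 18 such genes summed to 26634, 23304 and 25558 CPM in MCJ-deficient libraries, against 28170, 26306 and 20615 CPM in wild-type libraries. The 14 macrophage markers summed to 564, 1675 and 902 CPM in MCJ-deficient replicates 19, 20 and 21, against 213, 161 and 256.5 CPM in wild-type replicates 7, 8 and 9. The macrophage sums did not overlap (two-sided exact permutation p = 0.1, and 3 against 3 libraries can give no smaller value; adjusted p = 0.3 over 3 tests), while the colonocyte sums did (exact permutation p = 0.9, adjusted p = 0.9).

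MCJ-deficient replicate 21 stood apart in its sex-linked transcripts. Xist, the RNA of the inactive X chromosome in females, had 4, 0 and 3822 counts in MCJ-deficient replicates 19, 20 and 21, against 7, 0 and 1 in wild-type replicates 7, 8 and 9. The Y-linked Ddx3y had 1043, 1067 and 518 counts in the same MCJ-deficient libraries, against 241, 551 and 444 in wild-type libraries. Replicate 21 therefore held transcripts of the inactive X and of the Y chromosome together, although its label names 1 mouse. The counts of called genes below are also given without it for most lists, while levels and ratios of single genes include it. Its Dnajc15 level was that of its group.

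Dnajc15 (chromosome 14, 77826217 to 77874917 on GRCm38) had 2.70, 1.86 and 2.01 CPM in MCJ-deficient replicates 19, 20 and 21, against 42.1, 41.1 and 37.3 CPM in wild-type replicates 7, 8 and 9. It fell by 4.19 on the log2 scale (SE 0.28; adjusted p = 9.96e-05), and the call held without each library in turn. The 6 nearest tested genes, 3 on each side, were not called. Of the other genes tested within 1 Mb, 1 to 5 Mb, 5 to 10 Mb and 10 to 20 Mb, which numbered 6, 32, 34 and 62, 0, 1, 1 and 0 were called higher and 0 lower. Their medians ran between 0.03 and 0.2.

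In all, 142 genes rose in MCJ-deficient mice (0.983% of those tested) and 3 fell (0.0208%), Dnajc15 among them (edgeR quasi-likelihood test, Benjamini-Hochberg adjusted p under 0.05). All 142 lay above every wild-type library in every MCJ-deficient library, a separation that 9.75% of all tested genes showed. The 3 genes that fell lay below every wild-type library, as did 7.33% of all tested genes. The median log2 fold change was 2.56 over the called genes that rose and 0.03 over all tested genes. MCJ-deficient replicate 20 was the highest library for 130 of the 142 and replicate 19 the lowest of its group for 128, the same order as in the macrophage sums. Replicate 20 exceeded replicate 19 by a median factor of 2.38 in these genes and 1.02 in all genes with at least 1 CPM in each MCJ-deficient library. Without replicate 21, 68 of the 145 calls were kept, and all 145 genes had the same sign, with a median log2 fold change of 2.66 for the genes that rose. In 1 fit of all 17 libraries, where the spread is shared by all groups, 0 genes were called higher and 1, Dnajc15, lower. There 754 of 16958 genes had an unadjusted p under 0.05 (edgeR), a share under the 0.05 expected by chance. In the NP fit 1335 of 14452 did, against 723 expected by chance.

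**Figure D1:**
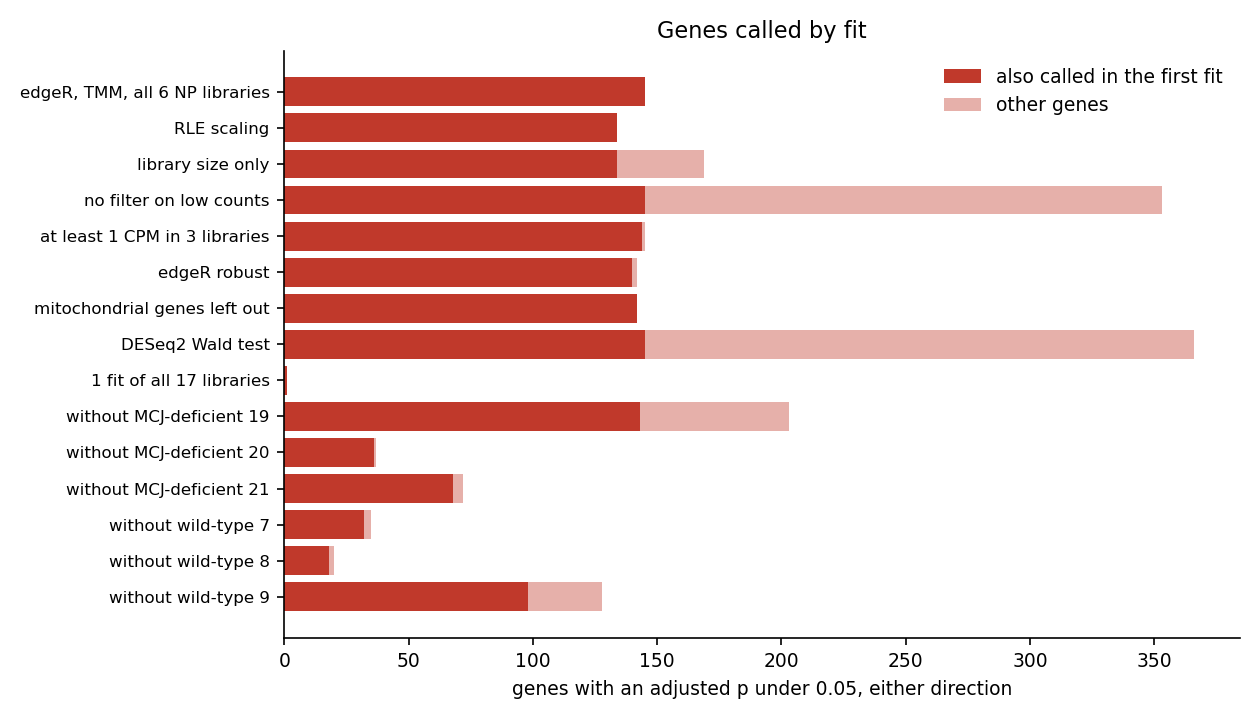
Number of genes with an adjusted p under 0.05 (x axis) in each fit (y axis), with the part also called in the fit at the top in dark red and other genes in light red. The count was 145 at the top, 366 with DESeq2, 1 with all 17 libraries in 1 fit and 20 to 203 without 1 library.

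Calls depended on single libraries. Without wild-type replicates 7, 8 and 9, 113, 127 and 47 of the 145 calls were lost. Without MCJ-deficient replicates 19, 20 and 21, 2, 109 and 77 were lost. Beside Dnajc15, 13 genes were called in every one of these 6 fits: Il1a, Il1b, Clec4e, Lilr4b, Slc11a1, Serpinb2, Lyz1, Tgfbi, Pla2g7, Cd44, Malt1, Mmp13 and Arl5c. Every other call named below was lost in at least 1 of the fits.

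Of those 13 genes, Il1a, the membrane-held form of interleukin 1, had 72.5, 194.7 and 106 CPM in MCJ-deficient replicates 19, 20 and 21, against 14.4, 12.8 and 10.5 CPM in wild-type replicates 7, 8 and 9 (log2 fold change 3.31, SE 0.36; adjusted p = 0.00275). Il1b, the secreted form that inflammasomes cleave, had 269, 494 and 372 CPM in MCJ-deficient libraries, against 92.2, 107.8 and 70.6 CPM in wild-type libraries (2.07, SE 0.27; adjusted p = 0.00473). Both groups were apart for each cytokine, and replicate 20 was highest.

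Clec4e encodes Mincle, a lectin that binds microbial glycolipids and debris of dead cells. It had 109, 188.5 and 120.4 CPM in MCJ-deficient replicates 19, 20 and 21, against 27.0, 22.3 and 24.9 CPM in wild-type replicates 7, 8 and 9 (2.49, SE 0.26; adjusted p = 0.00275). Lilr4b, an immunoglobulin-like receptor of myeloid cells, had 94.9, 182.5 and 118 CPM in MCJ-deficient libraries, against 26.4, 18.3 and 18.6 CPM in wild-type libraries (2.64, SE 0.29; adjusted p = 0.00275). The wild-type libraries stayed within narrow ranges for both receptors.

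Slc11a1, the phagosomal metal transporter NRAMP1, had 29, 38.7 and 35.6 CPM in MCJ-deficient replicates 19, 20 and 21, against 3.22, 5.36 and 6.08 CPM in wild-type replicates 7, 8 and 9 (2.81, SE 0.31; adjusted p = 0.00275). Its MCJ-deficient libraries lay closer together than those of Il1a. Serpinb2, the plasminogen activator inhibitor of monocytes, had 10.4, 26.7 and 14.3 CPM in MCJ-deficient libraries, against 1.38, 1.27 and 1.46 CPM in wild-type libraries (3.64, SE 0.42; adjusted p = 0.00275). Pla2g7, which inactivates platelet-activating factor, had 47.8, 136.5 and 78.1 CPM in MCJ-deficient libraries, against 10.1, 12.4 and 8.97 CPM in wild-type libraries (3.06, SE 0.36; adjusted p = 0.00341). Each was highest in replicate 20.

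Mmp13, a collagenase, had 29, 47.6 and 53.2 CPM in MCJ-deficient replicates 19, 20 and 21, against 7.88, 3.25 and 4.5 CPM in wild-type replicates 7, 8 and 9 (3.06, SE 0.37; adjusted p = 0.00357). Here replicate 21 was the highest library. Cd44, the hyaluronan receptor of leukocytes and crypt cells, had 133.5, 236 and 138 CPM in MCJ-deficient libraries, against 29.5, 40.1 and 34.9 CPM in wild-type libraries (2.28, SE 0.28; adjusted p = 0.00341). Tgfbi, a matrix protein that macrophages secrete, had log2 fold change 2.51 (SE 0.28), the lysozyme Lyz1 3.58 (SE 0.41), and Malt1, a protease of NF-kB signalling, 2.27 (SE 0.26). Arl5c, a small GTPase-like gene, stood at 11.0, 14.4 and 11.6 CPM in MCJ-deficient libraries and 1.45, 1.27 and 0.802 CPM in wild-type libraries.

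**Figure D2:**
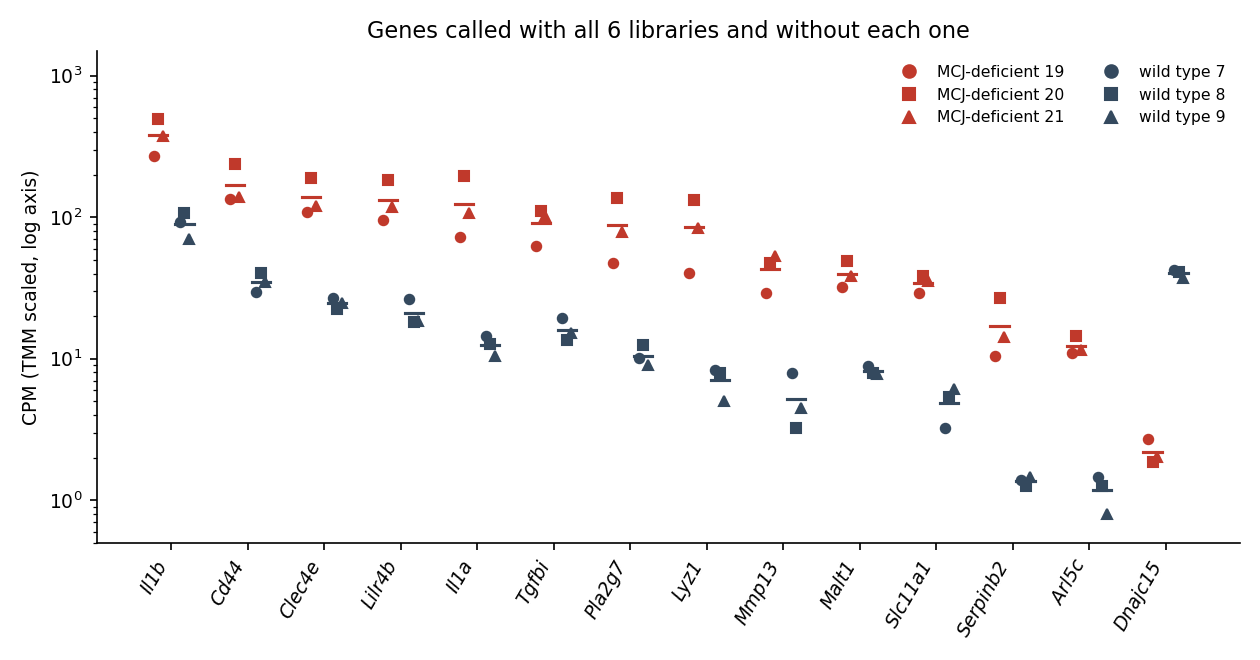
CPM on a log axis (y) for the 14 genes called with all 6 NP libraries and without each one (x), MCJ-deficient libraries in red left of wild-type libraries in dark blue; bars are group means of 3 libraries. In each of the 13 genes that rose every MCJ-deficient library lies above every wild-type library, and Dnajc15 shows the opposite order.

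Promoter windows were examined singly for 11 of the 13 genes, all but Malt1 and Arl5c, and 7 of these held none of the 3 motifs searched. The 3 genes whose windows hold an AP-1 motif are shown, chosen for that match. They come from RefSeq (GRCm38.p6) and run 5′ to 3′ in the direction of the gene from 250 bases before to 50 after the start. Capitals mark TGANTCA, a loose form of the AP-1 motif in which N is any base, or GAGGAAG, a PU.1 motif, searched on both strands.
Il1a, chr2:129309923-129310222, minus strand: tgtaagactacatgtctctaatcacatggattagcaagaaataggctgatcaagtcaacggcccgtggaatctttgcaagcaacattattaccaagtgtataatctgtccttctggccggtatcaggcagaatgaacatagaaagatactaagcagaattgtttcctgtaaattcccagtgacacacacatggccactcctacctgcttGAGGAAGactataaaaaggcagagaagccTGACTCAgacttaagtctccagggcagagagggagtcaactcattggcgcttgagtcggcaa
Mmp13, chr9:7272264-7272563, plus strand: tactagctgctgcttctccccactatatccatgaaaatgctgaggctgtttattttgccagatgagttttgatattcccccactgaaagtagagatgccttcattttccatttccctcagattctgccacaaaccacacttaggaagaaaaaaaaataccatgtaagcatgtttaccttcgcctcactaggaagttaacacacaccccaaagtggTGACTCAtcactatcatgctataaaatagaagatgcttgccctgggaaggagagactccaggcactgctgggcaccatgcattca
Serpinb2, chr1:107511173-107511472, plus strand: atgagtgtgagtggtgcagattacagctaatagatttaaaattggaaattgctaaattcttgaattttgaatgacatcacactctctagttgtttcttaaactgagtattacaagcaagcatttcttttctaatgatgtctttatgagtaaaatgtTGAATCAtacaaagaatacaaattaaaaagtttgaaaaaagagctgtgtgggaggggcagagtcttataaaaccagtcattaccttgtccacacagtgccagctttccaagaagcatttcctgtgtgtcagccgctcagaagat
Il1a held both motifs, and Mmp13 and Serpinb2 the loose AP-1 motif. It read TGACTCA in Il1a and Mmp13 and TGAATCA in Serpinb2. Cd44, not shown, held the PU.1 motif. Of 129 promoter windows of the genes that rose, which 102 of the 142 genes had, 14.7% held TGANTCA, against 5.87% of 13806 windows of 10922 tested genes. For GAGGAAG the shares were 29.5% and 13.7%, and for an NF-kB motif 6.98% and 1.78%. Several windows belong to 1 gene or overlap, and a match of letters is a description of the window, not a site of binding.

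Macrophage markers rose in the majority. Of 14 markers, all tested, 8 rose and 0 fell, with a median log2 fold change of 3.28, against 0.03 for all genes. For this list and every list below, the share to set beside the calls is 0.983% of all tested genes called higher and 0.0208% lower. Adgre1, which encodes F4/80, had 8.30, 44.9 and 27.7 CPM in MCJ-deficient replicates 19, 20 and 21, against 1.66, 2.79 and 1.22 CPM in wild-type replicates 7, 8 and 9 (3.83, SE 0.57; adjusted p = 0.0109). Lyz2, the macrophage lysozyme, had 227.5, 821 and 471 CPM in MCJ-deficient libraries, against 68.0, 42.9 and 42.3 CPM in wild-type libraries (3.31, SE 0.42; adjusted p = 0.00396). Csf1r, the receptor for the growth factor M-CSF, had log2 fold change 3.38 (SE 0.54) and the scavenger receptor Msr1 3.69 (SE 0.52). C1qb, a chain of complement C1q that resident macrophages make, had 5.67, 34.7 and 8.83 CPM in MCJ-deficient libraries, against 1.8, 0.734 and 2.45 CPM in wild-type libraries (3.30, SE 0.68; adjusted p = 0.0466). Apoe, a lipid carrier of macrophages, had 78.8, 664.5 and 189.5 CPM in MCJ-deficient libraries, against 50.1, 28.9 and 37.7 CPM in wild-type libraries (3.00, SE 0.61; adjusted p = 0.0440). For both genes replicate 20 was far above the rest of its group, and both calls were kept only without MCJ-deficient replicate 19 and lost without each of the other 5 libraries. The markers C1qa, Cd14, Mrc1, Cx3cr1, Cd163 and Mertk were not called, and Mertk, a receptor for dying cells, stood at 0.14 (SE 0.32). The number called was 4 without replicate 21 and 0 to 10 over the 6 fits without 1 library, 0 without wild-type replicate 8 and 10 without MCJ-deficient replicate 19.

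Monocyte markers divided, and their sum overlapped between the groups, with 769.6, 1469 and 982 CPM in MCJ-deficient replicates 19, 20 and 21, against 1864.5, 1041.5 and 1472 CPM in wild-type replicates 7, 8 and 9. Plac8 made most of this sum in every library, so the overlap mainly describes that gene. Taken singly, 8 of the 10 markers lay above every wild-type library in every MCJ-deficient library, as did 9.75% of all tested genes. Of 10 markers 6 rose (median 2.08; 4 without replicate 21, 0 without wild-type replicate 7). Ccr2, the receptor that draws monocytes out of bone marrow, had 6.20, 23.4 and 12.1 CPM in MCJ-deficient replicates 19, 20 and 21, against 0.415, 1.21 and 0.535 CPM in wild-type replicates 7, 8 and 9 (4.25, SE 0.59; adjusted p = 0.00754). Ly6c2, the surface marker of inflammatory monocytes, and Plac8, which colon epithelium also expresses, were not called and had negative values of -0.74 (SE 0.36) and -0.80 (SE 0.27).

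Of 14 chemokine receptors 10 were tested and 6 were called, among them Ccr1, Ccr2, Ccr3, Cxcr4 and Ccrl2 (median 2.97; 3 without replicate 21, and 1 without MCJ-deficient replicate 20, wild-type replicate 7 or wild-type replicate 8). Ccr1, a receptor for Ccl3, had 23.3, 64.3 and 24.9 CPM in MCJ-deficient replicates 19, 20 and 21, against 8.75, 9.34 and 6.49 CPM in wild-type replicates 7, 8 and 9 (2.19, SE 0.39; adjusted p = 0.0245). The groups did not overlap, and replicate 20 was far above the other MCJ-deficient libraries.

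Of 12 tested CC chemokines 2 rose, against 0.983% of all tested genes (median 1.15; 2 without replicate 21, 0 without MCJ-deficient replicate 20 or wild-type replicate 8). Ccl3 had 91.7, 165.7 and 109.8 CPM in MCJ-deficient replicates 19, 20 and 21, against 20.3, 21.5 and 41.1 CPM in wild-type replicates 7, 8 and 9 (2.15, SE 0.33; adjusted p = 0.0110). Ccl2, the main ligand of Ccr2, had 24.6, 30.4 and 10.2 CPM in MCJ-deficient libraries, against 18.2, 15.7 and 27.0 CPM in wild-type libraries, and was not called (0.10, SE 0.38). Of 7 tested neutrophil-attracting CXC chemokines and receptors 1 rose, Cxcl2, against 0.983% of all tested genes called higher. Cxcl2 had 499.9, 872 and 497 CPM in MCJ-deficient libraries, against 125, 129 and 277.5 CPM in wild-type libraries (1.81, SE 0.34, adjusted p = 0.0299, and 0.0555 without replicate 21). None of the 11 tested neutrophil markers was called (median 0.16), which does not stand apart from the share over all tested genes. Their sums were 503, 636 and 310 CPM in MCJ-deficient libraries and 691, 438 and 745 CPM in wild-type libraries.

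Adhesion receptors on leukocytes rose in part. Of 16 integrins and selectin ligands 6 rose, namely Cd44, Itga4, Itgam, Itgb2, Itgal and Itgax (median 1.69; 3 without replicate 21, 1 without MCJ-deficient replicate 20 or wild-type replicate 7). Itga4, the chain of the integrin VLA-4 that binds VCAM-1, had 8.26, 24.9 and 21.5 CPM in MCJ-deficient replicates 19, 20 and 21, against 0.277, 0.649 and 1.85 CPM in wild-type replicates 7, 8 and 9 (4.27, SE 0.65; adjusted p = 0.0110). Of 10 endothelial adhesion molecules 0 were called (median 0.32), which does not stand apart from the 0.983% of all tested genes called higher.

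Receptors for microbial sugars and antibodies, and paired receptors of the Lilr, Pir and Cd300 families, were also among the calls. Of 13 tested C-type lectins 4 rose (median 2.76; 3 without replicate 21, 1 without MCJ-deficient replicate 20 or wild-type replicate 7). Beside Clec4e they were Clec4n and Clec4d, which encode Dectin-2 and MCL, with log2 fold changes of 2.77 (SE 0.45) and 1.57 (SE 0.28), and Clec7a, which encodes the beta-glucan receptor Dectin-1. Clec7a had 20.4, 102.1 and 43.9 CPM in MCJ-deficient replicates 19, 20 and 21, against 7.5, 7.56 and 1.94 CPM in wild-type replicates 7, 8 and 9 (3.29, SE 0.61; adjusted p = 0.0268). Of 21 tested paired immunoglobulin receptors 7 rose and all 21 had positive values (median 2.33; 4 called without replicate 21, 1 without wild-type replicate 8). The inhibitory receptors Lilrb4a (2.71, SE 0.33) and Pirb (2.81, SE 0.36) were among them. Lilr4b and Lilrb4a, and Pirb and the Pira genes, are near-identical copies whose counts may be divided uncertainly. Of 9 tested Fc receptors and adaptors 5 rose (median 2.03; 2 without replicate 21, 0 without wild-type replicate 8). Fcgr2b, the inhibitory IgG receptor, had 36.9, 97.5 and 55.5 CPM in MCJ-deficient libraries, against 11.4, 8.30 and 8.92 CPM in wild-type libraries (2.73, SE 0.35; adjusted p = 0.00442).

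Of 20 tested Toll-like receptors, CD14 and NOD receptors 0 were called, a count that does not stand apart from the 0.983% of all tested genes called higher, and their median was 0.33. Cd14, the endotoxin co-receptor, had 240.2, 396 and 239 CPM in MCJ-deficient replicates 19, 20 and 21, against 100.3, 92.4 and 173 CPM in wild-type replicates 7, 8 and 9 (1.26, SE 0.30; adjusted p = 0.0873). Its groups did not overlap.

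**Figure D3:**
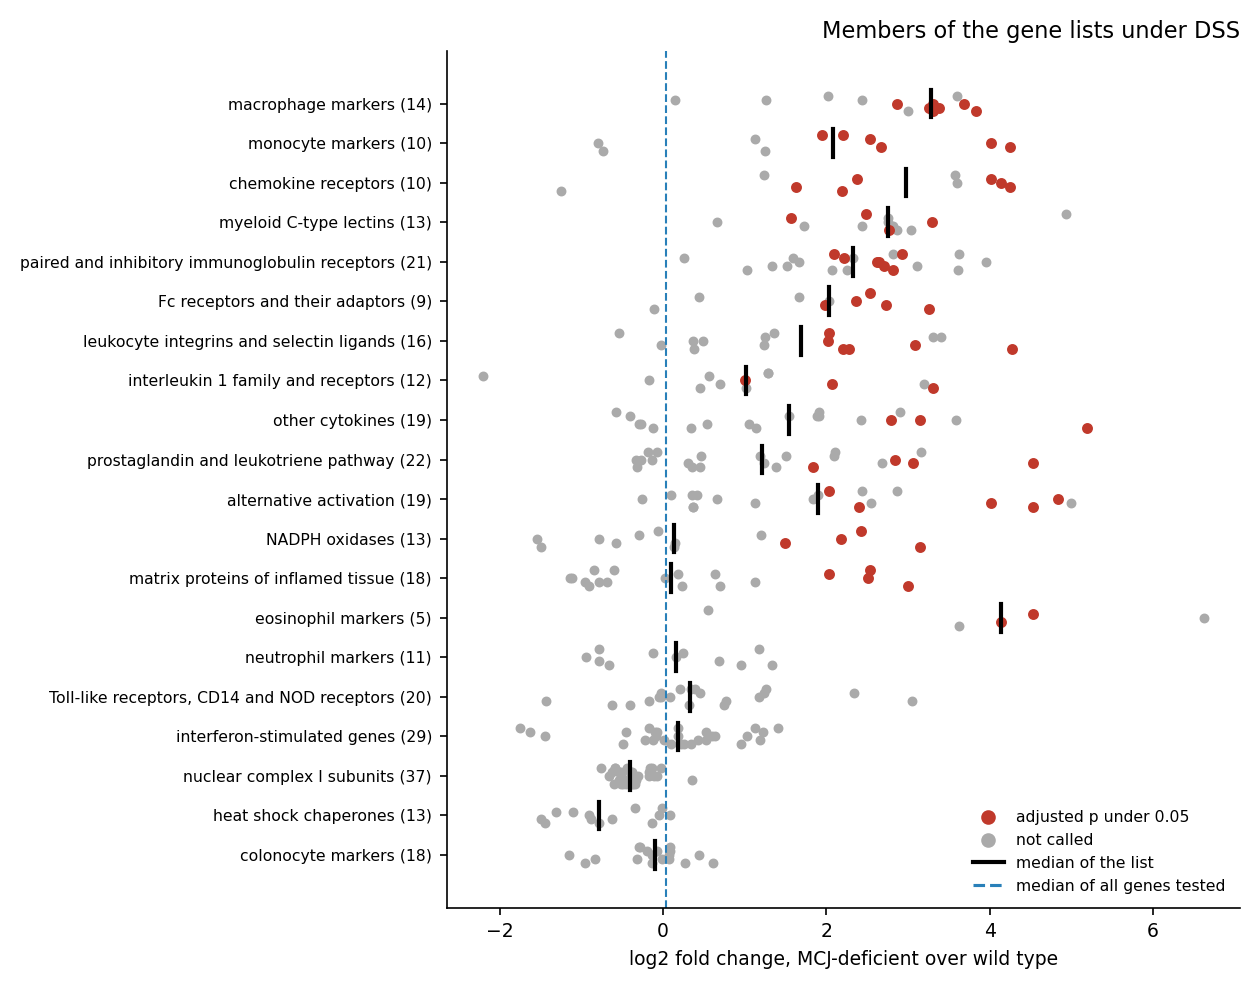
Log2 fold change, MCJ-deficient over wild type (x axis), of each tested member of 20 gene lists (y axis, number tested in brackets), called members in red, with the list median in black and the median of all tested genes, 0.03, as a dashed line. Macrophage markers, chemokine receptors and C-type lectins lie to the right, with medians of 3.28, 2.97 and 2.76, and complex I subunits and heat shock chaperones to the left, with -0.40 and -0.78 and 0 calls.

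Of 12 tested members of the interleukin 1 family 3 rose, and Il1rn, the antagonist of the interleukin 1 receptor, changed least of them. It had 373, 528 and 416 CPM in MCJ-deficient replicates 19, 20 and 21, against 213, 229 and 217 CPM in wild-type replicates 7, 8 and 9 (1.00, SE 0.21; adjusted p = 0.0478; 0.142 without replicate 21). Of 19 other tested cytokines 3 rose, Il10, Osm and Ifnb1, against 0.983% of all tested genes (1 without replicate 21, 0 without wild-type replicate 8). Il10, an anti-inflammatory cytokine, had 36.4, 100.2 and 31.5 CPM in MCJ-deficient libraries, against 9.16, 5.67 and 4.33 CPM in wild-type libraries (3.14, SE 0.46; adjusted p = 0.0107). It was lost only without wild-type replicate 8, at an adjusted p of 0.120. Osm, a cytokine of the interleukin 6 family that acts on stromal cells, had 21.2, 42.4 and 35.9 CPM in MCJ-deficient libraries, against 3.35, 2.37 and 8.56 CPM in wild-type libraries (2.79, SE 0.47; adjusted p = 0.0162). Tnf and Il6 were not called, at 1.14 (SE 0.29) and -0.27 (SE 0.27).

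Ifnb1, interferon beta, had 1.65, 7.97 and 2.08 CPM in MCJ-deficient replicates 19, 20 and 21, against 0.138, 0 and 0.170 CPM in wild-type replicates 7, 8 and 9, and the groups did not overlap (5.19, SE 1.06; adjusted p = 0.0448; 0.0643 without replicate 21 and 0.607 without replicate 20). Of 29 interferon-stimulated genes 0 were called, and their median was 0.18 (-0.10 without replicate 21). That count does not stand apart from the 0.983% of all tested genes called higher.

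Some enzymes of lipid mediators and some markers of alternative activation were called. Ptgs2, the inducible prostaglandin synthase COX-2, had 146.4, 273 and 194 CPM in MCJ-deficient replicates 19, 20 and 21, against 19.7, 25.8 and 39.9 CPM in wild-type replicates 7, 8 and 9 (2.84, SE 0.32; adjusted p = 0.00275), and its call was lost without wild-type replicate 8 at 0.0523. With Pla2g7, Alox15 and Alox5ap it made 4 called of 22 tested in that pathway (3 without replicate 21, 1 without wild-type replicate 8). Of 19 tested alternative activation genes 5 rose, Chil3, Chil4, Arg1, Tgm2 and Alox15, the last also counted in the lipid mediator list (3 without replicate 21, 0 without wild-type replicate 7). Chil3, a chitinase-like protein of macrophages also known as Ym1, had 50.3, 199 and 102.3 CPM in MCJ-deficient libraries, against 7.92, 11.7 and 2.26 CPM in wild-type libraries (4.01, SE 0.61; adjusted p = 0.0110). Arg1, arginase of alternatively activated macrophages, had 14, 18.2 and 11.0 CPM in MCJ-deficient libraries, against 1.14, 4.04 and 2.97 CPM in wild-type libraries (2.40, SE 0.45; adjusted p = 0.0284; 0.0555 without replicate 21). Chil3 and Chil4 are near-identical copies whose counts may be divided uncertainly. The genes Nos2 and Acod1 of classical activation were not called, at -0.45 (SE 0.67) and 0.80 (SE 0.27).

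Genes of matrix, clotting and iron handling rose in part. Of 18 matrix proteins 4 rose, Tgfbi, Spp1, Vcan and Tgm2 (3 without replicate 21, 1 without wild-type replicate 8), with a list median of 0.10 (-0.10 without replicate 21). Spp1, osteopontin, had 25.2, 56.1 and 23.2 CPM in MCJ-deficient replicates 19, 20 and 21, against 5.29, 3.95 and 3.82 CPM in wild-type replicates 7, 8 and 9 (3.00, SE 0.38; adjusted p = 0.00396). Of 14 coagulation genes 3 rose, Serpinb2, F10 and F13a1 (1 without replicate 21), the last 2 being clotting factors that macrophages also make, at 3.02 (SE 0.50) and 2.67 (SE 0.55). Of 15 tested genes of heme and iron handling 2 rose, Slc11a1 and Hp, the haptoglobin that binds free hemoglobin, at 1.65 (SE 0.29; adjusted p = 0.0751 without replicate 21). Of 27 tested myeloid transcription factors 1 rose, Zeb2, a repressor that myeloid cells need, at 3.22 (SE 0.48), and its list median was 0.54. A single call in that list does not stand apart from the 0.983% of all tested genes called higher.

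Of 13 tested NADPH oxidase genes 4 rose, all of the phagocyte enzyme: Cybb, its catalytic chain, the cytosolic subunits Ncf1 and Ncf4, and the GTPase Rac2 (1 called without replicate 21, 0 without MCJ-deficient replicate 20 or wild-type replicate 8). Cybb had 17.9, 35.5 and 38.4 CPM in MCJ-deficient replicates 19, 20 and 21, against 6.6, 1.66 and 2.16 CPM in wild-type replicates 7, 8 and 9 (3.15, SE 0.51; adjusted p = 0.0148). Nox1, the epithelial oxidase, was not called at -1.54 (SE 0.59).

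The sum of eosinophil markers did not overlap between the groups either. It was 11.1, 49.9 and 33.2 CPM in MCJ-deficient replicates 19, 20 and 21, against 1.04, 4.06 and 1.77 CPM in wild-type replicates 7, 8 and 9. Of 8 markers 5 were tested and 2 called, Ccr3, the eotaxin receptor, and Alox15, a lipoxygenase (1 without replicate 21, 0 without MCJ-deficient replicate 20, wild-type replicate 7 or wild-type replicate 8). The defining granule gene Epx had 0 counts in every NP library, Prg2 stood at 0.580, 2.51 and 0.620 CPM in MCJ-deficient libraries and 0, 0 and 0.0243 CPM in wild-type libraries, and Siglecf was at or under 3.69 CPM throughout. Alox15 and Chil3 are made by more than 1 myeloid cell type, and the part of eosinophils in their values was not tested.

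Dendritic cell markers summed to 14.1, 29.1 and 18.7 CPM in MCJ-deficient replicates 19, 20 and 21, against 4.74, 6.83 and 5.74 CPM in wild-type replicates 7, 8 and 9, without overlap. Of 10 such markers 6 were tested and 1 was called, Itgax (0 without replicate 21), against 0.983% of all tested genes called higher. Itgax was already counted among the integrins. It made a large part of the sums in MCJ-deficient libraries and a smaller part in wild-type libraries, so the difference of the sums largely describes that gene. The part of dendritic cells in the other results was not tested.

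Plasma cell transcripts were high in 1 library. Igha, the heavy chain of IgA, had 15.3, 168.5 and 10.5 CPM in MCJ-deficient replicates 19, 20 and 21, against 1.00, 5.64 and 4.69 CPM in wild-type replicates 7, 8 and 9 (4.09, SE 0.98; adjusted p = 0.0950). Igkc and Jchain had the same single high library, and 0 of 6 tested plasma cell markers were called (2 without replicate 21, 0 without replicate 20). A count of 0 in that list does not stand apart from the 0.983% of all tested genes called higher.

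The genes that rose were then set against the macrophage markers in the same library. Per 1000 CPM of the 14 markers, with a gene's own value taken out where it was a marker, 34 of the 142 lay above every wild-type library in every MCJ-deficient library, 12 lay below and 96 overlapped. Il1a stood at 128.5, 116 and 118 per 1000 in MCJ-deficient replicates 19, 20 and 21, against 67.7, 79.0 and 41.1 in wild-type replicates 7, 8 and 9. Il1b overlapped, at 477, 295 and 412 in MCJ-deficient libraries, against 434, 668 and 275 in wild-type libraries. Il1rn lay below, at 661, 315 and 461.5 in MCJ-deficient libraries, against 1000.3, 1418.5 and 846 in wild-type libraries. Cd14 made 42.6, 23.6 and 26.5% of the sum in MCJ-deficient libraries and 47.2, 57.3 and 67.4% in wild-type libraries. Without Cd14 8 genes lay above, 30 below and 104 overlapped, and the median ratio of MCJ-deficient to wild-type means was 0.784, against 1.23 with it. Lyz2, itself called higher, made most of the sum without Cd14, so these ratios divide largely by a gene that rose. Set against the remaining markers, Lyz2 stood at 2359, 1794 and 2451 per 1000 in MCJ-deficient libraries, against 1534, 1648 and 1024 in wild-type libraries. Among the 8 were Serpinb2, Lyz2, Alox15, Chil4, Ifnb1, Abcg3 and Ccr2. The 142 genes were chosen by the same contrast. The marker sum was itself 4.98 times higher in the MCJ-deficient mean than in the wild-type mean, and 8.55 times without Cd14. Such ratios were not made for all tested genes, so these counts have no background share beside them. These ratios are a description, and no test was made on them.

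**Figure D4:**
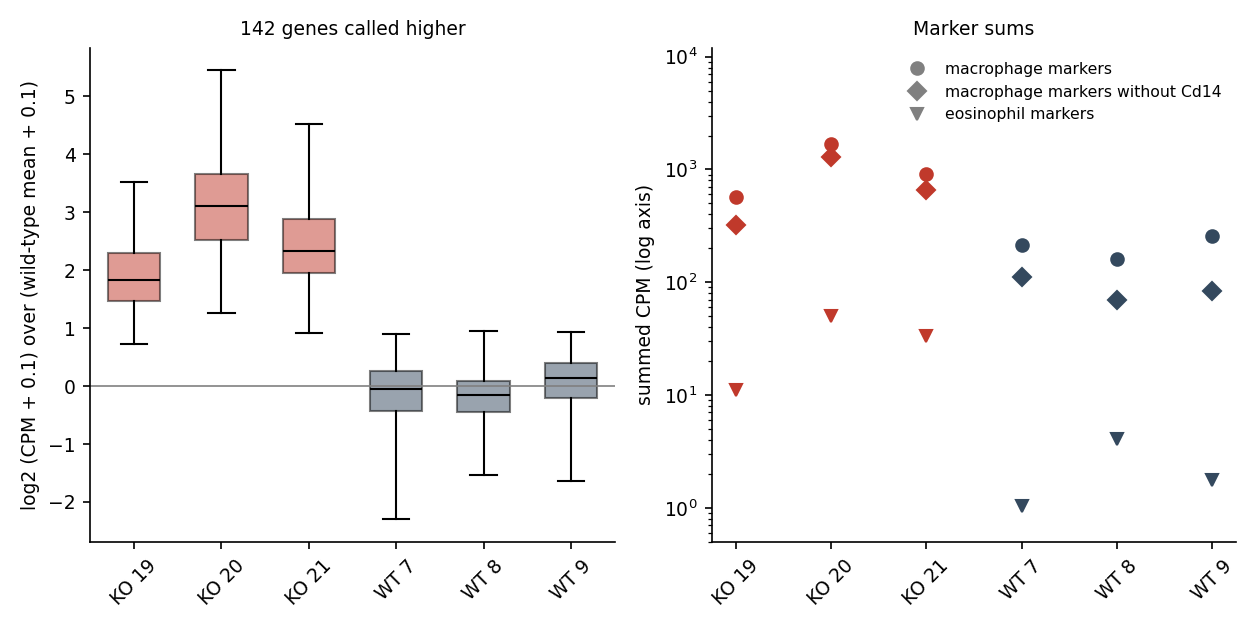
Left, log2 of (CPM + 0.1) over (wild-type mean + 0.1) of the 142 genes called higher, by library, as medians, quartiles and full range; the genes were chosen by this contrast. Right, summed CPM of macrophage markers with and without Cd14 and of eosinophil markers, on a log axis; replicate 20 is highest and replicate 19 lowest of the MCJ-deficient libraries (KO) in each sum, 1675 and 564 CPM for all macrophage markers.

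**Figure D5:**
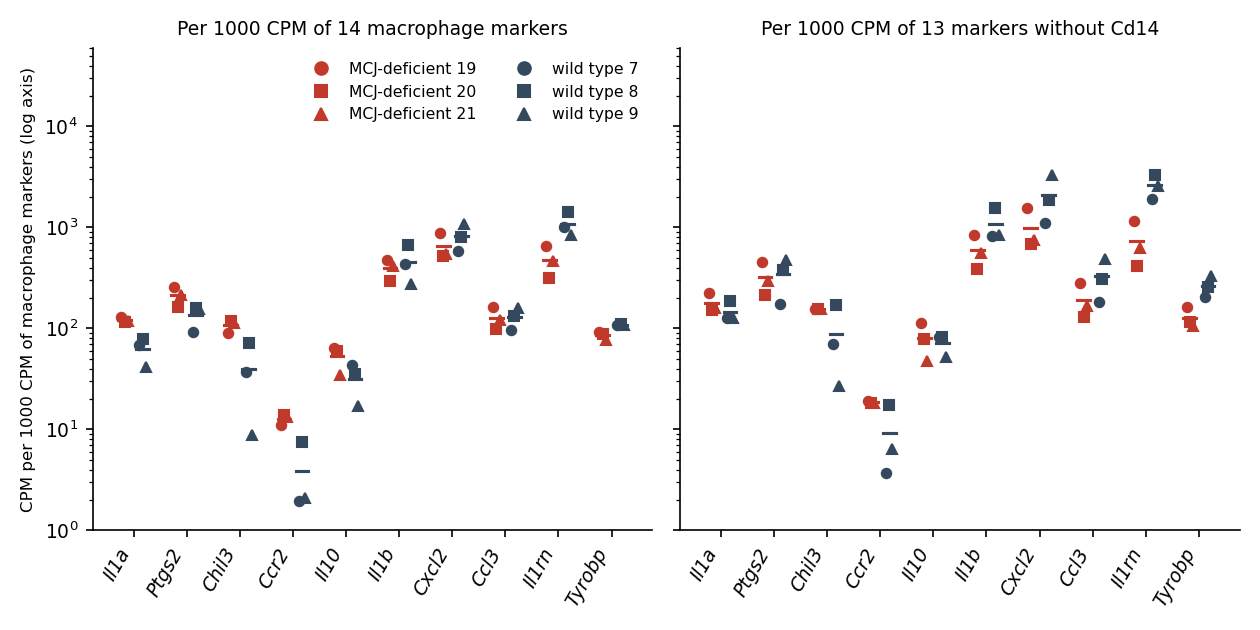
Level of 10 genes that rose, per 1000 CPM of macrophage markers in the same library (y, log axis), MCJ-deficient in red left of wild type in dark blue, with bars at group means of 3 libraries; the left panel sums 14 markers and the right panel 13 without Cd14. Il1a is apart on the left (116 to 128.5 against 41.1 to 79.0) and overlaps on the right, Ccr2 is apart in both, and Il1rn is below wild type in both.

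Genes that fell were few. Ccl20, an epithelial chemokine that attracts cells with CCR6, had 4.66, 10.9 and 2.17 CPM in MCJ-deficient replicates 19, 20 and 21, against 35.1, 30.4 and 31.5 CPM in wild-type replicates 7, 8 and 9 (-2.45, SE 0.47; adjusted p = 0.0311; 0.0534 without replicate 21). Cd177, a surface protein of neutrophils that inflamed epithelium also expresses, had 13.5, 17 and 14.4 CPM in MCJ-deficient libraries, against 28.2, 38.3 and 43.4 CPM in wild-type libraries (-1.29, SE 0.25; adjusted p = 0.0380), and its call was lost without any 1 of the 6 libraries. Ly6a, a marker of repairing epithelium, had 229.9, 421.5 and 182 CPM in MCJ-deficient libraries, against 1215, 627.5 and 605 CPM in wild-type libraries, and missed the threshold (-1.55, SE 0.35; adjusted p = 0.0730).

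Mitochondrial genes gave no call beside Dnajc15. In lists as short as the following, 0 calls do not stand apart from all tested genes, of which 0.983% were called higher and 0.0208% lower. Of 13 genes of the import motor 0 others passed, and 0 of 37 nuclear complex I subunits, 0 of 15 assembly factors and 0 of 13 mitochondrially encoded genes did, with medians of -0.40, -0.22 and 0.27 for the last 3 lists. Of the 37 complex I subunits 36 had negative values, and 52.4% of all tested genes had positive ones. Without replicate 21 those medians were -0.37, -0.06 and -0.01.

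The MCJ effect was compared between conditions in the fit of all 17 libraries, which share the NP libraries in both contrasts. The MCJ-deficient NN group held only 2 libraries, which limits the comparison with NN. No gene of 16958 was called for the effect in NP minus that in PP (edgeR, 886 with an unadjusted p under 0.05), nor for NP minus NN (edgeR, 950). Ang4, an angiogenin of the secretory epithelium that kills bacteria, had the smallest p in both. It had 10.8, 27.1 and 74.6 CPM in MCJ-deficient replicates 19, 20 and 21, against 5.98, 2.65 and 7.15 CPM in wild-type replicates 7, 8 and 9 (2.83, SE 0.61; adjusted p = 0.0574). The difference of its effects was 5.63 (SE 0.84; adjusted p = 0.0548) against PP and 6.28 (SE 0.95; adjusted p = 0.0621) against NN. Without MCJ-deficient replicate 19 Ang4 was the 1 gene called in each contrast, at 6.08 and 6.70 with adjusted p of 0.00687 and 0.00866. Without replicate 21, its highest library, the differences were 4.65 (adjusted p = 0.105) and 5.30 (adjusted p = 0.0743). Next against PP came the globin gene Hbb-b1, not called in NP, at -5.24 (SE 0.83, adjusted p = 0.0626). Cd177 and Ccr3, both called in NP, followed with differences of -3.18 (SE 0.55) and 7.32 (SE 1.29) and an adjusted p of 0.0876 each. The globin gene Hba-a2, not called in NP, had the same adjusted p at -4.84 (SE 0.86). Ccr3 stood at 1.30 (SE 1.88) against NN. After Ang4 against NN came Bicd1 (-8.94), Cenpq (-7.35), Cp (5.13) and Sis (-4.55), none called in NP, with an adjusted p of 0.195 each.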

How the data were processed

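Per the labels' protocols, colon tissue was washed and digested with collagenase type IV, Trizol was used for the RNA and NuGEN's Universal Plus mRNA-Seq kit for the libraries. Per the submitters' processing notes, tools included CASAVA 1.8.2, FastQC, Trim Galore, STAR 2.5.4 and DESeq2, with mm10 as the build. The counting program, annotation and strand setting are not given in the sources used here. The authors deposited raw counts per NCBI gene number, 1 table per condition. Gene numbers without a symbol took 1.44 to 3.48% of NP counts and stayed in the fits.

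Genes were kept by filterByExpr, scaled by TMM and tested with the edgeR 4.0.16 quasi-likelihood test within the NP table (R 4.3.3), and the code was checked on simulated data. The simulated libraries varied less between replicates than these, whose common biological coefficient of variation in edgeR was 0.437. That check therefore does not bear on how reliable the calls are here. A gene was called at a Benjamini-Hochberg adjusted p under 0.05 over all tested genes. Marker sums were compared by exact permutation with scipy 1.17.1. No source says that the mice were independent beyond 1 number per library, so p-values measure the spread between these samples. DESeq2 1.42.0, other scalings and filters, a fit of all 17 libraries and fits without each library were alternatives.

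The members and the 61 lists were chosen with earlier results of these data known. Genes were named by rule: Dnajc15; of called genes with at least 50 mean normalized counts, the 20 largest increases and 10 largest decreases; genes called without each library; up to 6 called members per list, or the 3 with the smallest p where at most 1 was called; the 5 smallest p of each difference between conditions; and the 3 nearest genes on each side of Dnajc15. Further genes, such as Mertk, Tnf, Il6, Ccl2, Nos2 and Plac8, were named after their values were seen, as known counterparts of called genes.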

Additional observations from a re-analysis of the deposited data

How the results depend on the processing

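The count of called genes, 145 with 142 higher and 3 lower, moved with the fit. It was 353 (308 higher, 45 lower) with no filter on low counts and 366 (319 higher, 47 lower) with DESeq2, and both kept all 145. With library size alone 13 genes were lower. In the fit of all 17 libraries 1 gene was called, 0 higher and 1 lower. Without 1 library the calls ran from 20 to 203, the higher genes from 18 to 199 and the lower genes from 2 to 4. Other settings (RLE scaling, at least 1 CPM in 3 libraries, robust fitting, mitochondrial genes left out) gave 134 to 145 calls. All 145 genes kept their direction under every alternative that tested them. The differences between conditions called 0 to 1 gene over the fits without 1 library. The macrophage sum differed by 837 CPM (523 to 1078 without 1 library) and the mitochondrial share by 4.5 points (1.12 to 8.7). The colonocyte difference of 135 CPM ran from -2073 to 1705 without 1 library. With CPM of nuclear counts and no TMM the differences were 1434 for macrophages and 3199 for colonocytes. Among genes named and not called, the log2 fold change turned sign without 1 library for Mertk (-0.05 to 0.3), Nos2 (-0.86 to 0.91) and Ccl2 (-0.22 to 0.44); the cause of these changes was not tested. No paired analysis was possible because the groups share no library or mouse number. At 3 against 3 libraries no permutation p under 0.1 could be reached.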
